A study of Homo sapiens with 2 samples.

Results

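Basement membrane chains were followed through 9 genes: COL4A1 and COL4A2 (collagen IV), LAMA1, LAMA5, LAMB1, LAMB3 and LAMC1 (laminin chains), NID1 (nidogen-1) and HSPG2 (perlecan). They are 9 of the 36601 genes listed in the count matrices, were picked by symbol, and all 9 were found. The samples were 2 single-cell RNA libraries of colon organoids grown from 1383D6, a human iPS cell line (induced pluripotent stem cells, an established line). CNT received no cytokine, and 3CK received TNF-α, IFN-γ and IL-1β together for 8 days in a study that, by its title, set up a model of ulcerative colitis. The stem cells of both groups were kept on recombinant laminin fragments, moved to Matrigel-coated plates and given Activin A and then FGF2. Both were then embedded in Matrigel, which is itself a basement membrane extract, and shared a colonic medium that the labels list with EGF, forskolin, PD98059 and 5-Aza-2'-Deoxycytidine. The embedding matrix is protein and is not measured here. Each group is 1 library, so no difference below has a replicate check, no test was made, and all intervals are 95% intervals for counting error only.

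The basement membrane is the thin sheet of matrix under every epithelium. Laminins, each a trimer of an α, a β and a γ chain, form a network on the cell surface; collagen IV, whose most widespread form is built from α1 and α2 chains, forms a covalently linked network beside it, and nidogen and the proteoglycan perlecan link both. In the gut, epithelial and mesenchymal cells both contribute chains, and the laminin α chain changes with development and along the crypt axis.

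After filtering, CNT held 2487 cells with 101831571 unique molecular identifiers (UMIs, each counting 1 captured RNA molecule) and 3CK held 1398 cells with 91860414. Median depth differed, 28911 UMIs per cell in CNT and 62746 in 3CK, and no barcode was shared. Levels are CPM, the UMIs of a gene over all UMIs of the summed cells, scaled to 1000000. With 3' counting a molecule is meant to give 1 UMI whatever its length. Whether reads in introns were counted is not given, so levels of different genes set side by side compare UMIs and may not compare whole transcripts. Epithelial cells were those with EPCAM at 2 or more UMIs per 10000, 1660 CNT and 1016 3CK cells. Mesenchymal cells had COL1A1, COL1A2 and COL3A1 summing to 5 or more per 10000 with EPCAM under 1, 574 CNT cells (23.1%) and 124 3CK cells (8.87%). The remaining 253 CNT and 258 3CK cells met neither condition. The sample titles name epithelial cells only.

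The markers bore out the names in part. All 14 epithelial markers were at 10 CPM or more in epithelial cells, and their summed level there was 5892 CPM in CNT and 5772 in 3CK, against 1116 and 989 in mesenchymal cells. The intestinal factor CDX2 was at 80.6 and 83.3 CPM in epithelial cells of CNT and 3CK. VIL1 and LGALS4, genes of gut enterocytes, were lower in 3CK, at 130.1 and 29.3 CPM and at 69.8 and 15.4 CPM; of the 14 markers 1 was 2-fold higher and these 2 were 2-fold lower. TTR, a plasma carrier protein of liver and yolk sac, was at 64857 and 19491 CPM in the same cells. In mesenchymal cells 16 of 17 mesenchymal markers passed 10 CPM, with sums of 12103 CPM in CNT and 5755 in 3CK. COL1A1, one of the genes of the gate, was itself lower there in 3CK, at 906 against 3010 CPM, so other gates were tried as well. The 10 endothelial markers summed to 118 CPM in CNT and 87.1 in 3CK mesenchymal cells, and 3 of them reached 10 CPM there as the mean of both libraries. EGFL7 was at 53.2 CPM in CNT and 54.2 in 3CK, KDR at 32.1 and 8.01, and TEK at 24.7 and 12.5. Among the others, CDH5, CLDN5 and VWF stayed at or under 0.87 CPM in mesenchymal cells. Of 7 smooth muscle markers 4 reached 10 CPM there, led by TAGLN at 403 and 619 CPM, with a sum of 607 and 872, while MYH11 was at or under 1.07. Of 7 leukocyte markers 3 reached it, with a sum of 69.2 and 211 CPM. CD68 was at 26.7 and 91.4 CPM and TYROBP at 27.1 and 87.9, FCER1G was at 1.68 and 15.7, and PTPRC, the common leukocyte antigen, at 0.56 and 3.62. The part of such cells in the mesenchymal differences was not tested.

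Over all cells 6 chains had a lower level in 3CK than in CNT and 3 had a higher one. These levels are shares of the counted RNA, not amounts per cell. COL4A1, COL4A2, LAMA1, LAMB1, LAMC1 and NID1 were lower, LAMA5, LAMB3 and HSPG2 higher, and every interval lay clear of 0. Past 2-fold, 0 of 9 were higher and 2 of 9, COL4A1 and LAMA1, were lower; of all 9670 genes with a mean of 10 CPM or more, 5.82% were 2-fold higher and 6.04% 2-fold lower. The median log2 ratio (3CK over CNT) was -0.76 for the 9 chains and 0.01 for all those genes. In epithelial cells 8 chains reached 10 CPM (NID1 did not), and 0 were 2-fold higher and 1, LAMA1, lower, beside 7.08% and 6.34% of 9151 genes. In mesenchymal cells 8 reached it (LAMB3 did not), and 0 were 2-fold higher and 1, LAMB1, lower, beside 4.28% and 8.18% of 9639 genes. The median over all 9 chains was -0.58 in epithelial and -0.74 in mesenchymal cells. Over the 8 chains that reached 10 CPM in each class it was -0.51 and -0.76. All genes that reached 10 CPM there had medians of 0.07 and -0.10.

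**Figure D1:**
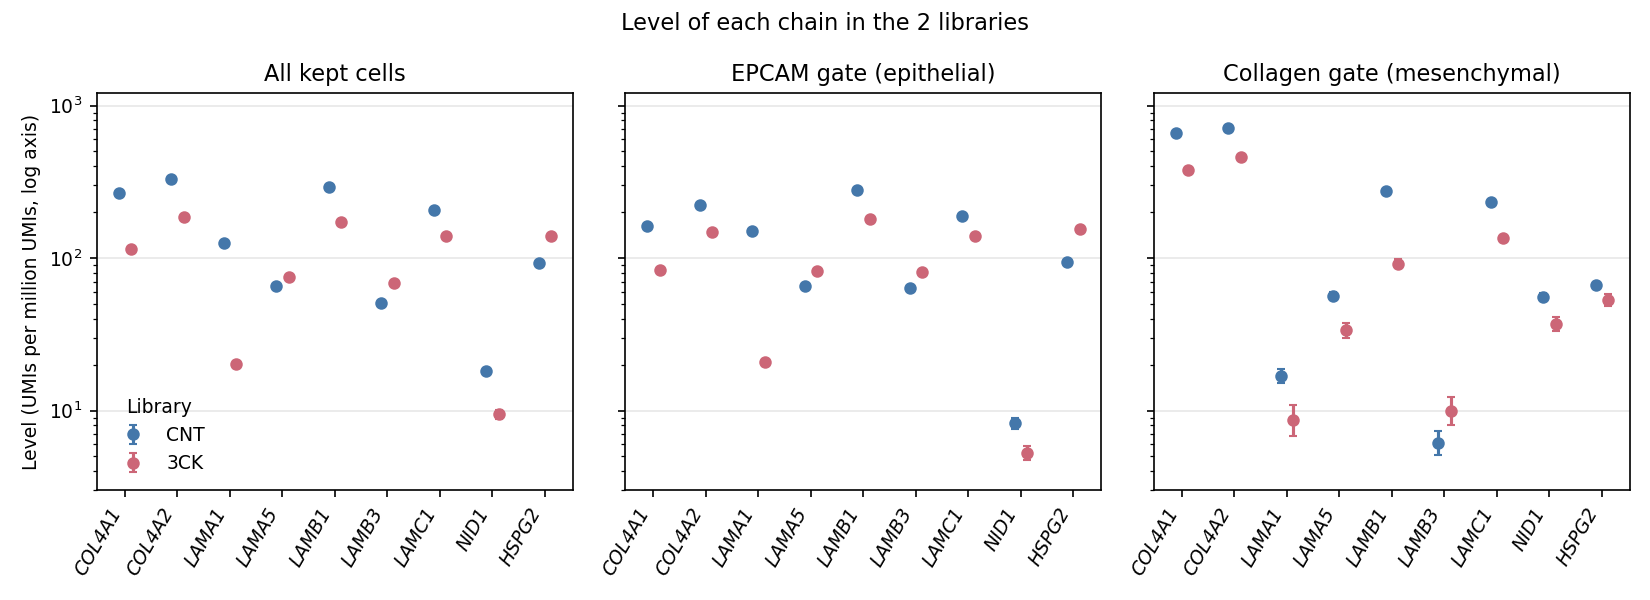
Level of each of the 9 chains (CPM, log axis) in CNT and 3CK, over all kept cells, in epithelial cells and in mesenchymal cells; bars are exact Poisson 95% intervals and are often smaller than the points. LAMA1 in epithelial cells shows the widest gap, 151 against 20.7 CPM, while LAMA5, LAMB3 and HSPG2 lie higher in 3CK in the epithelial panel.

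COL4A1 and COL4A2 encode the α1 and α2 chains, which assemble as 2 α1 with 1 α2. They lie head to head on chromosome 13 of GRCh38, COL4A1 on the minus strand at chr13:110148963-110307157 and COL4A2 on the plus strand at chr13:110305812-110513209, with 126 bases between their RefSeq starts. The annotated spans overlap at their 5′ ends, and how reads there were assigned is not given in the sources used here. The 100 bases of that gap that overlap no annotated exon (chr13:110307158-110307257, plus strand, RefSeq starts on GRCh38.p14) are shown because the pair shares them and varied together across cells. Capitals mark a CCAAT box and a GC box (GGGCGG).
COL4A1-COL4A2: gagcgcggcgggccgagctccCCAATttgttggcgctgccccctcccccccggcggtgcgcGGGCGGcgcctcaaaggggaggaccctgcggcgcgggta

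COL4A1 stood at 268 CPM in CNT and 115 in 3CK over all cells (log2 -1.22, -1.25 to -1.19). COL4A2 stood at 330 CPM in CNT and 187 in 3CK (log2 -0.82, -0.84 to -0.79). Both were lower in 3CK in each class as well, so the direction did not depend on which cells were looked at. In epithelial cells COL4A1 went from 162 CPM in CNT to 83.0 in 3CK and COL4A2 from 223 to 149. In mesenchymal cells, where both were highest, COL4A1 went from 658 to 381 CPM and COL4A2 from 712 to 463. COL4A1 was the lower of the 2 in each class as a whole, and its UMIs per COL4A2 UMI were fewer in 3CK. That ratio was 0.728 (0.711 to 0.745) in CNT and 0.558 (0.540 to 0.576) in 3CK epithelial cells, and 0.924 (0.902 to 0.946) and 0.823 (0.787 to 0.861) in mesenchymal cells. The intervals of the libraries did not overlap in either class. In the mesenchymal cells rich in MALAT1 that are described further on, COL4A1 had more UMIs than COL4A2. The counts were 6096 against 6036 in CNT, within counting error, and 995 against 824 in 3CK. The ratio was thus higher in 3CK there, the reverse of the class as a whole. Such cells were 35.0% of CNT and 22.6% of 3CK mesenchymal cells with at least 10000 UMIs, and their part in the ratio was not tested.

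Across cells with at least 10000 UMIs (1458 CNT, 995 3CK), the pair had the highest likeness of any chain to any other gene, with a Pearson correlation of 0.88 in CNT and 0.83 in 3CK on the scale of log2(UMIs per 10000 + 1). Within epithelial cells it was 0.79 and 0.76, and within mesenchymal cells 0.88 in both libraries. Cells of a library share its preparation, so these values describe the libraries and carry no p. After COL4A2, the genes most like COL4A1 were COL5A2, COL1A1, COL5A1 and CALD1, at 0.51 or more in each library. The other collagen IV chains that reached 10 CPM were also lower in 3CK. COL4A5, which forms trimers with α6 in some epithelia, was at 87.4 CPM in CNT and 59.7 in 3CK (log2 -0.55), and COL4A6 at 43.5 and 18.3 (-1.25). COL4A3 and COL4A4, best known from the kidney glomerulus, stayed at or under 1.30 CPM over all cells.

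LAMA1 encodes the α1 chain of laminin-111, the laminin of early embryos (chr18:6941742-7117797, minus strand). Its log2 ratio over all cells was the most negative of the 9 chains. It stood at 125 CPM in CNT and 20.1 in 3CK (log2 -2.64, -2.71 to -2.56). Epithelial cells supplied 90.8% of its CNT UMIs and 78.9% of its 3CK UMIs. In epithelial cells alone it stood at 151 CPM in CNT and 20.7 in 3CK, 7.30-fold lower. The level was spread unevenly over epithelial cells with at least 10000 UMIs: the median was 0.49 UMIs per 10000 in CNT and 0.06 in 3CK, and the 90th percentile 3.81 and 0.55. With every such cell thinned to 10000 UMIs, 463 of 1013 CNT cells (45.7%) and 117 of 730 3CK cells (16.0%) had a LAMA1 UMI; unthinned, the shares were 80.7% and 51.4%. In mesenchymal cells the thinned share was 9.97% in CNT and 8.49% in 3CK. EPCAM, which the gate keeps under 1 per 10000, had 17.7% and 22.6% in the same cells from a far higher epithelial level. Per unit of RNA, LAMA1 was 8.93 times as high in epithelial as in mesenchymal cells in CNT and 2.39 times in 3CK, and EPCAM 53.5 and 55.7 times. How much of the mesenchymal signal was carried RNA was not tested. The median depths before thinning were 69849 UMIs in CNT and 94100 in 3CK epithelial cells, and 52981 and 76590 in mesenchymal cells.

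LAMA5 encodes the α5 chain, the main α chain of the mature intestinal epithelium (chr20:62307955-62367312, minus strand). It was at 65.8 CPM in CNT and 75.2 in 3CK over all cells (log2 0.19, 0.14 to 0.24). The classes differed in direction. In epithelial cells it was at 66.0 CPM in CNT and 82.8 in 3CK (0.33, 0.27 to 0.38), and in mesenchymal cells at 56.5 and 33.8 (-0.74, -0.93 to -0.56). The remaining cells had 93.3 CPM in CNT and 63.1 in 3CK (-0.56, -0.72 to -0.41). The difference between the classes was not tested.

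LAMB1 encodes the β1 chain that pairs with either of these α chains (chr7:107923799-108003213, minus strand). Over all cells it was the highest of the 5 laminin members in both libraries, at 293 CPM in CNT and 173 in 3CK (log2 -0.76, -0.79 to -0.74). In epithelial cells it was at 279 and 181 CPM, and in mesenchymal cells at 276 and 91.6 CPM, the most negative log2 ratio of the 9 members in that class (-1.59, -1.70 to -1.49). In CNT the 2 classes were level, with 0.989 times as much in mesenchymal as in epithelial cells, and in 3CK the factor was 0.505. LAMB1 stayed 2-fold lower there in all 11 alternatives. The share of thinned mesenchymal cells with a LAMB1 UMI was 83.6% in CNT and 56.6% in 3CK.

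LAMC1 encodes γ1, the partner chain of β1 (chr1:183023420-183145592, plus strand). It stood at 206 CPM in CNT and 139 in 3CK (log2 -0.56, -0.59 to -0.53). The level was lower in 3CK in both classes, at 190.1 and 139 CPM in epithelial cells and 232 and 135 CPM in mesenchymal cells. Across cells LAMB1 and LAMC1 correlated at 0.55 in CNT and 0.67 in 3CK, and LAMB1 was the gene most like LAMC1 among 6095 genes with 20 CPM or more in both libraries. The converse did not hold: the genes most like LAMB1 were UTRN, SNHG14, CASK, UACA and MYO9A. For LAMC1 the next gene after LAMB1, MACF1, was close to it in CNT, at 0.54, and was at 0.57 in 3CK. LAMA1 had no close match: TLN2, the first of its 5 most like genes, correlated at 0.34 in CNT and 0.35 in 3CK, which is too weak to read.

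LAMB3 encodes β3, a chain of laminin-332, the laminin of hemidesmosomes (chr1:209614870-209652425, minus strand). It was at 50.7 CPM in CNT and 68.4 in 3CK (log2 0.43, 0.38 to 0.49). Epithelial cells held nearly all of it, 93.7% of its UMIs in CNT and 89.9% in 3CK, and their level was 63.4 CPM in CNT and 80.5 in 3CK (0.34, 0.29 to 0.40). In mesenchymal cells 3.54% and 6.60% of thinned cells had a UMI. The level was 10.3 times as high in epithelial as in mesenchymal cells in CNT and 8.07 times in 3CK. LAMA3, whose α3 chain joins β3 in the trimer and which is not among the 9 chains, was also higher, at 33.6 CPM in CNT and 53.6 in 3CK (0.67). The 5 genes most like LAMB3 across cells included LAMA3 and ITGB4, the integrin chain of the hemidesmosome, at 0.40 or more in each library.

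The makeup of the laminin α and β transcripts in epithelial cells therefore differed between the libraries. LAMA1 gave 56.8% of all α chain UMIs in CNT and 11.9% in 3CK, LAMA5 24.8% and 47.5%, and LAMA3 14.7% and 36.4%. The summed α chain level was 266 CPM in CNT and 174 in 3CK, so the larger shares of LAMA5 and LAMA3 stood on a smaller total. Among β chains LAMB1 gave 67.5% and 58.4%, and LAMB3 15.3% and 25.9%. In mesenchymal cells LAMA2, the α chain of muscle and mesenchyme, gave 65.1% of α UMIs in CNT and 38.0% in 3CK; its own level there was 157 CPM in CNT and 28.4 in 3CK (log2 -2.47). LAMA5 gave 23.4% and 45.2%, so LAMA2 led there in CNT and LAMA5 in 3CK, although the level of LAMA5 was lower in 3CK.

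**Figure D2:**
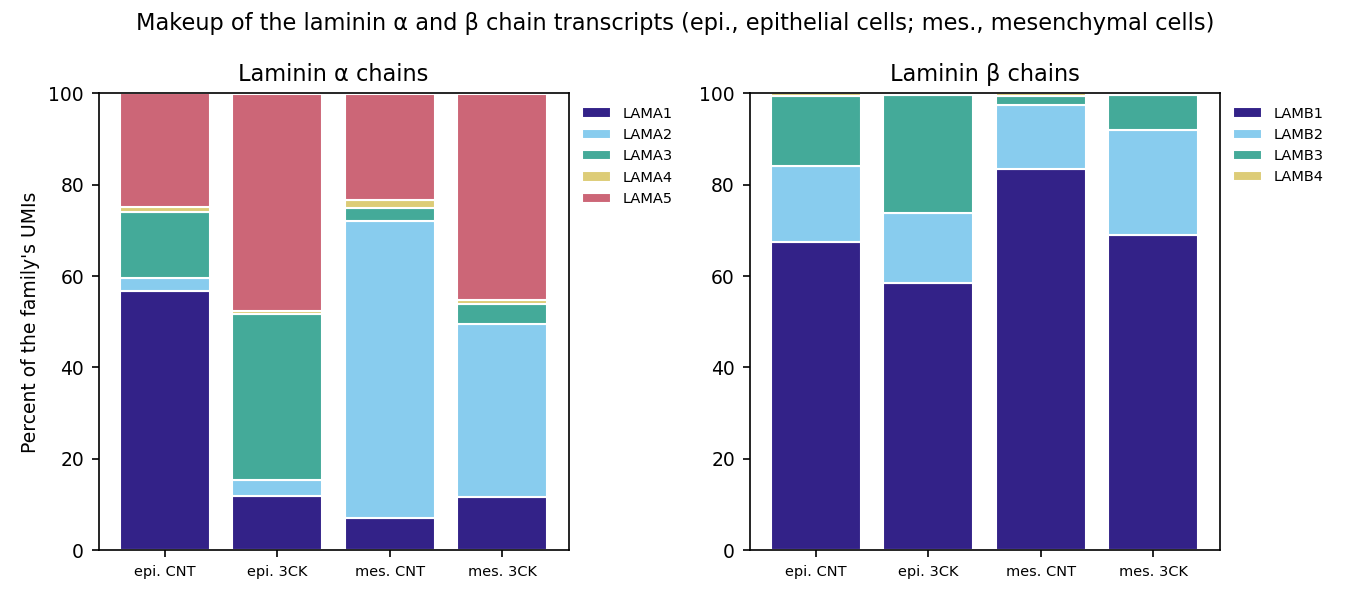
Share of each laminin α and β chain (percent of the α or β UMIs, stacked to 100) in epithelial and mesenchymal cells of CNT and 3CK. In epithelial cells LAMA1 takes 56.8% of the α chain bar in CNT and 11.9% in 3CK, and LAMB3 takes 15.3% and 25.9% of the β chain bar.

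NID1 encodes nidogen-1, the linker between laminin γ1 and collagen IV (chr1:235975830-236065109, minus strand). It was the scarcest of the 9, at 18.1 CPM in CNT and 9.43 in 3CK (log2 -0.94, -1.06 to -0.83). Its level was higher in mesenchymal cells, with 55.9 CPM in CNT and 37.0 in 3CK against 8.26 and 5.26 in epithelial cells. Of thinned epithelial cells 6.61% in CNT and 5.48% in 3CK had a NID1 UMI. COL1A1, which mesenchymal cells hold at a far higher level, had 24.9% and 9.04% in the same cells. Its most like genes were COL5A1, LOXL2, COL1A1, FLT1 and FRMD6. Its paralog NID2, from the list of other basement membrane components, was at 61.1 CPM in CNT and 16.4 in 3CK (-1.90).

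HSPG2 encodes perlecan, a large heparan sulfate proteoglycan (chr1:21822244-21937310, minus strand). It had the largest positive log2 ratio of the 9 chains, with 92.3 CPM in CNT and 140.4 in 3CK (0.60, 0.57 to 0.64). In epithelial cells it was at 94.4 CPM in CNT and 156 in 3CK (0.72, 0.68 to 0.76), and in mesenchymal cells at 66.2 and 53.1 (-0.32, -0.47 to -0.17). The remaining cells had 151 CPM in CNT and 118 in 3CK (-0.36, -0.47 to -0.23). The share of thinned epithelial cells with an HSPG2 UMI was 48.4% in CNT and 69.5% in 3CK. In mesenchymal cells it was 37.3% and 43.4%, against the order of the CPM, so no order is read from that share. HSPG2 and LAMA5 were each the gene most like the other, with a correlation of 0.50 in CNT and 0.68 in 3CK, and AGRN (agrin, the other large proteoglycan of the sheet) came next for both. Within epithelial cells HSPG2 and LAMA5 correlated at 0.48 in CNT and 0.67 in 3CK. Within mesenchymal cells they did so at 0.48 and 0.24. AGRN was at 65.6 CPM in CNT and 99.4 in 3CK (0.60).

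The 250 bases before the RefSeq start (GRCh38.p14, written 5′ to 3′ along the gene) are shown for HSPG2 and LAMA5, which varied together across cells, and for LAMB3, which was also higher in 3CK but did not vary with them (0.18 with HSPG2 in CNT, 0.10 in 3CK). Capitals mark GC boxes (GGGCGG on either strand) and, in LAMB3, also the NF-κB consensus. The windows are chr1:21937311-21937560, chr20:62367313-62367562 and chr1:209652426-209652675, all read on the minus strand, and none overlaps an annotated exon.
HSPG2: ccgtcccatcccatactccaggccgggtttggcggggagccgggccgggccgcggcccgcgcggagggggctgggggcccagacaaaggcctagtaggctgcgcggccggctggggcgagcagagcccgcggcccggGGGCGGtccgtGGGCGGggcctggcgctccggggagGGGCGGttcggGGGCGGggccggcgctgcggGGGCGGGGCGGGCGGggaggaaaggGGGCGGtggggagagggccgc
LAMA5: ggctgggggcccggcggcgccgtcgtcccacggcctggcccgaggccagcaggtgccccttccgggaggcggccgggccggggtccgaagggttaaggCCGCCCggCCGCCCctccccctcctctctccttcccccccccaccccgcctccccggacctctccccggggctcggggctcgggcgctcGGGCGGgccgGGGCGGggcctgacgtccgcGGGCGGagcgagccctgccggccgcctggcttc
LAMB3: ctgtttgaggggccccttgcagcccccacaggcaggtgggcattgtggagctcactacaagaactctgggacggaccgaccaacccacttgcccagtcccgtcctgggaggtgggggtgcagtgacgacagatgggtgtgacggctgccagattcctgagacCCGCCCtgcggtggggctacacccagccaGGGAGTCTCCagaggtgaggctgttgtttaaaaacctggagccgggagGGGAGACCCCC

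HSPG2 held 8 GC boxes and LAMA5 held 5, both with a GC content of 82.8%, and LAMB3 held 1 at 64% GC. Of 35116 RefSeq promoters 42.6% held at least 1 GC box, and 32.0% a CCAAT box; boxes that overlap were each counted. LAMB3 held 3 matches of the NF-κB consensus on either strand, of which 1 pair overlaps, a motif found in 9.96% of promoters. RefSeq gives LAMB3 3 starts, and the third holds none. NID1 held 1 such match and the other 6 members with a promoter none. No member window held TTCNNNGAA, the GAS element (6.57% of promoters), or TATAAA (10.7%). TGACTCA, the AP-1 element (4.20%), was at the third LAMB3 start only. Of the 9 members 8 were matched to a RefSeq promoter. These are letter matches and do not show binding.

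In CNT the cells that supplied each chain fell into 3 patterns. LAMB3 came mostly from epithelial cells in both libraries. LAMA1 did so in CNT, where epithelial cells held 74.8% of all UMIs and gave 90.8% of its own; in 3CK their 78.9% lay near their 76.3% of all UMIs. COL4A1, COL4A2 and NID1 came from mesenchymal cells well beyond the share of RNA those cells held: in CNT mesenchymal cells held 19.3% of all UMIs but gave 47.4% of COL4A1, 41.7% of COL4A2 and 59.4% of NID1 UMIs. For LAMA5, LAMB1, LAMC1 and HSPG2 the mesenchymal part in CNT was nearer to that share of RNA, at 13.8% to 21.8%. The remaining cells held 5.90% of CNT UMIs and gave a larger part of each of these chains. They gave 561 of 6702 LAMA5, 3116 of 29836 LAMB1, 1919 of 20959 LAMC1 and 910 of 9404 HSPG2 UMIs. In 3CK mesenchymal cells held 9.92% of UMIs and gave 32.9% of COL4A1, 24.5% of COL4A2 and 38.9% of NID1. Their part of LAMA5, LAMB1 and HSPG2 was below that share of RNA, at 308 of 6912, 835 of 15855 and 484 of 12895 UMIs. Their part of LAMC1 lay near it, at 1227 of 12803 UMIs. In that library epithelial cells, with 76.3% of all UMIs, gave the largest share of every chain, from 42.6% of NID1 to 89.9% of LAMB3.

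**Figure D3:**
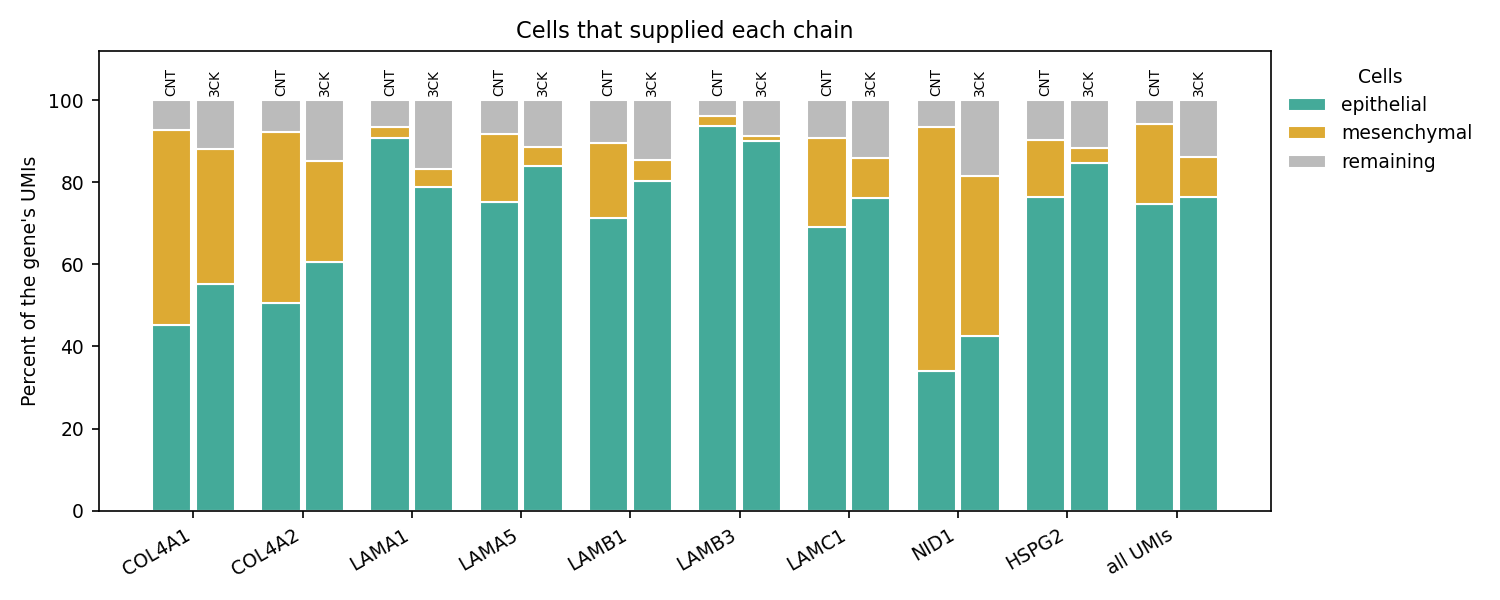
Percent of each chain's UMIs that came from epithelial, mesenchymal and remaining cells in CNT (left bar of each pair) and 3CK (right bar); the last pair gives the same for all UMIs. COL4A1, COL4A2 and NID1 stand out by their mesenchymal part. LAMB3 stands out by the near absence of that part, and LAMA1 does so in CNT only.

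Per unit of RNA, COL4A1 was 4.06 times as high in mesenchymal as in epithelial cells in CNT and 4.59 times in 3CK. COL4A2 was 3.20 and 3.11 times as high and NID1 6.77 and 7.02 times. Interstitial genes were more one-sided: COL1A1, which the gate used, was 25.2 and 69.5 times as high, COL6A3 31.7 and 68.9 times, and LUM 9.86 and 20.2 times. The next figures assume that mesenchymal RNA carried into epithelial droplets keeps its genes in 1 ratio. If all epithelial COL1A1 UMIs had arrived that way, carried RNA would make up 16.1% of the epithelial COL4A1 level in CNT and 6.60% in 3CK; judged by LUM it would make up 41.2% and 22.7%. For NID1 the same figures by LUM were 68.6% and 34.7%. How much RNA was carried was not tested. Of the epithelial cells 497 in CNT (29.9%) and 49 in 3CK (4.82%) also passed 5 collagen UMIs per 10000. Of these, 70 and 13 had at least 10000 UMIs. In the deep epithelial cells that did not pass, 943 in CNT and 717 in 3CK, COL4A1 was at 156 and 81.5 CPM and COL4A2 at 217 and 148.

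The smaller mesenchymal share of RNA and the levels within classes both enter the difference over all cells, and both were computed. Holding each class at its CNT level and giving the classes their 3CK shares of RNA moved COL4A1 by -0.19, COL4A2 by -0.13 and NID1 by -0.31 on the log2 scale. The other 6 chains moved by 0.04 to 0.13 upward. Holding the shares as in CNT and giving each class its 3CK level moved COL4A1 by -0.92, COL4A2 by -0.63, NID1 by -0.62, LAMA1 by -2.74, LAMB1 by -0.84 and LAMC1 by -0.57. For each of these 6 chains the part from levels was larger than the part from shares. LAMB3 and HSPG2 were moved up by 0.35 and 0.53 by levels, and LAMA5 by 0.13. This split uses 3 broad classes, and shifts between kinds of cells inside a class count as levels. The shares also depend on the gate, whose collagen genes were lower in 3CK. Mesenchymal cells held 19.3% of UMIs in CNT and 9.92% in 3CK with this gate. With a gate that used no collagen they held 19.7% and 13.9%. The split was made with the first gate only.

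**Figure D4:**
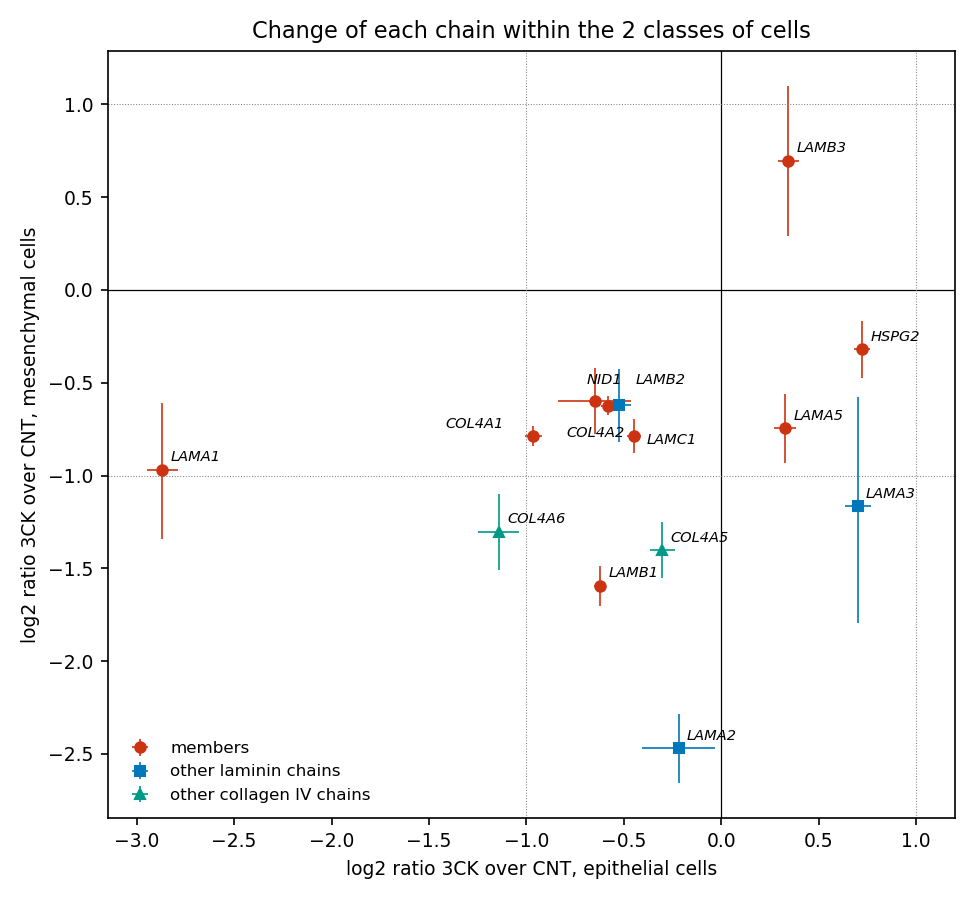
Log2 ratio of 3CK over CNT in epithelial cells (x axis) against mesenchymal cells (y axis) for the 9 chains and for other laminin α and β and collagen IV chains with a mean of 10 CPM or more in either class; bars are 95% counting intervals and dotted lines mark 2-fold. LAMA1 lies far to the left at -2.87, and LAMA5 and HSPG2 lie right of 0 and below it.

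The epithelial class was itself mixed, and TTR gave a measure of it that was not used to choose the chains. Epithelial cells with at least 10000 UMIs were placed in 3 ranges of TTR, under 50, 50 to 500, and 500 or more UMIs per 10000, with 87, 391 and 535 cells in CNT and 225, 436 and 69 in 3CK. In CNT LAMA1 was higher where TTR was higher, at 48.8, 134 and 179 CPM. In 3CK the lower ranges were alike within counting error, at 17.0 and 17.1 CPM, and the top range, of 69 cells, was at 57.7 CPM. LAMA1 was lower in 3CK in each range. LAMB3 ran the other way, at 96.0, 73.9 and 51.7 CPM in CNT and 118, 70.1 and 39.9 in 3CK, and it was higher in 3CK only in the lowest range. HSPG2 was higher in 3CK in all 3 ranges, at 156, 116 and 71.6 CPM in CNT and 194, 141 and 147 in 3CK. LAMB1 showed little gap in the lowest range, 236 and 215 CPM, and a wider one in the middle range, 333 and 167 CPM. A range of TTR is not a cell type: 22, 141 and 162 CNT cells and 53, 123 and 40 3CK cells lay within 0.5 log2 units of a boundary.

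**Figure D5:**
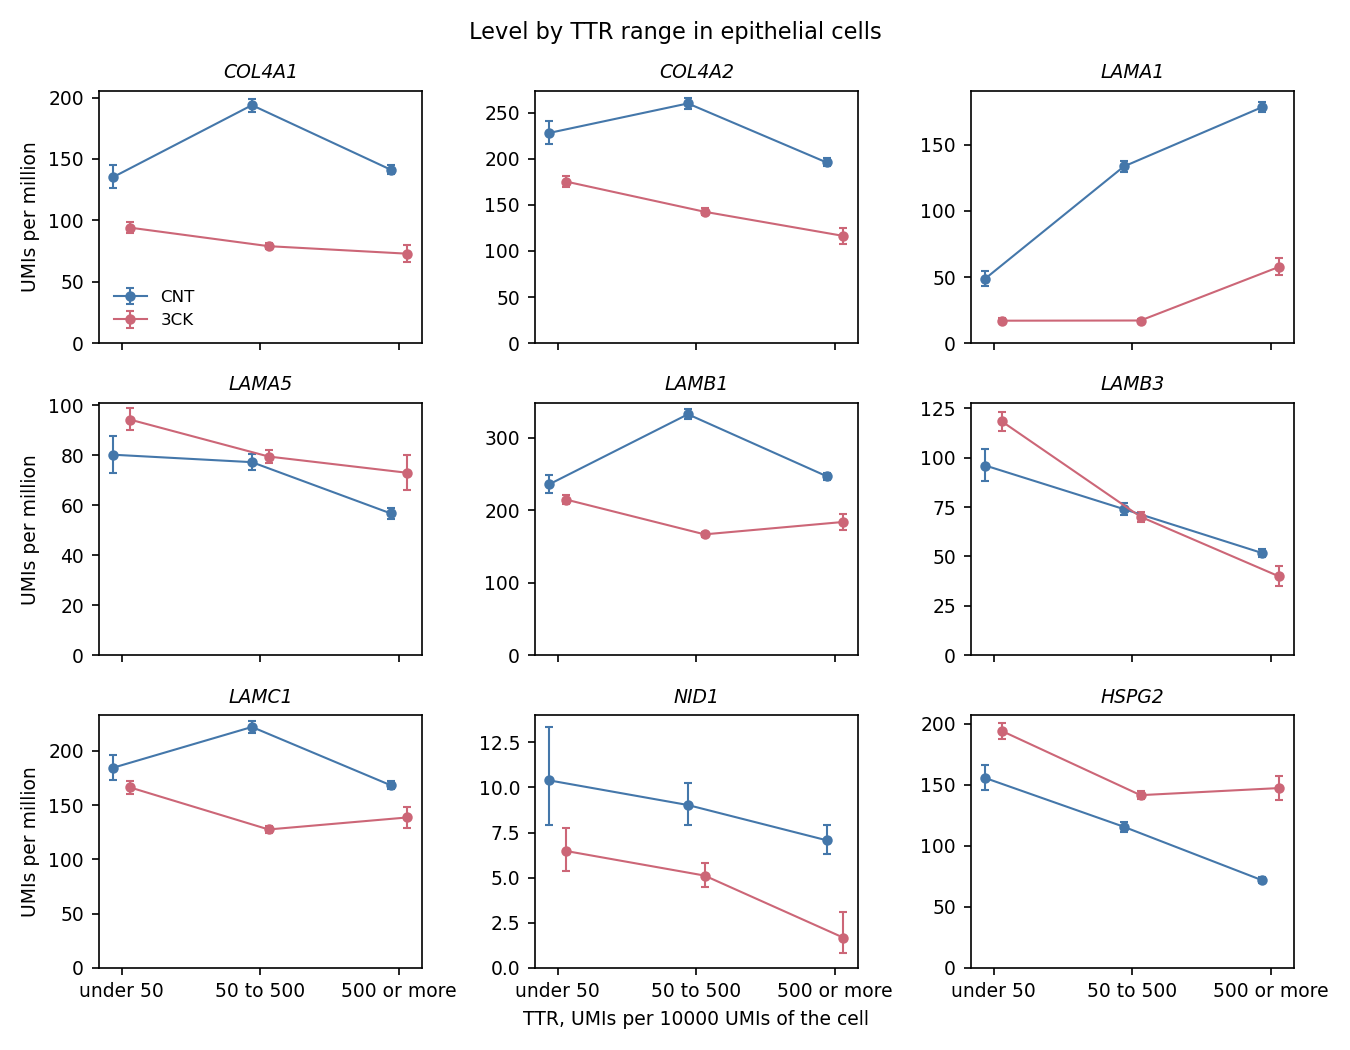
Level of each chain (CPM, linear axes from 0) in deep epithelial cells of CNT and 3CK by TTR range; bars are exact Poisson 95% intervals and lines only join the ranges of 1 library. The 3CK points of LAMA1 lie below those of CNT in every range, while those of HSPG2 lie above.

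Cells rich in MALAT1, a nuclear RNA, had higher levels of these chains. With 100 or more MALAT1 UMIs per 10000 as the limit, set after the data were seen, 17.1% of deep CNT and 24.8% of deep 3CK epithelial cells and 35.0% and 22.6% of mesenchymal cells were rich in it. In those cells all 9 chains were higher than in the others, in both libraries and both classes, LAMB1 by 2.33-fold in CNT and 3.18-fold in 3CK over all cells. Their median mitochondrial share over all cells was also higher, 5.21% against 2.61% in CNT and 4.85% against 2.20% in 3CK. Without these cells the log2 ratio of LAMA5 over all cells was 0.02 in place of 0.19, and that of LAMA1 in epithelial cells -2.92. Whether reads in introns were counted is not given in the sources used here.

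Other parts of the sheet and its receptors were given by lists. Of 22 further basement membrane components 16 reached 10 CPM over all cells, 1 was 2-fold higher and 6 were 2-fold lower; the shares of all genes for this and the next lists are the 5.82% and 6.04% given above. The highest was SPARC, a collagen-binding protein, at 766 CPM in CNT and 353 in 3CK (log2 -1.12); the largest log2 ratio was that of NTN4, netrin-4, a laminin-binding protein (1.08), and the smallest that of FREM2, of the Fraser complex (-3.32). Of 21 receptors and their partners for laminin and collagen IV, 19 reached 10 CPM, 3 were 2-fold higher (ITGA2, ITGB4 and SDC4) and 1 lower (SDC2). ITGA2, the α2 integrin chain of a collagen receptor, was at 57.6 CPM in CNT and 201 in 3CK (1.81). ITGB4, which pairs with α6 to hold laminin-332, was at 25.2 and 63.1 (1.32), and DST, dystonin, the highest of the list, at 386 and 574 (0.57). The list's median was -0.00.

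Of 20 listed genes that fold, cross-link or export collagen, 18 reached 10 CPM over all cells, and those 18 stayed within 2-fold: 15 had a negative log2 ratio and 3 a positive one, and the median was -0.35. P4HB, a subunit of prolyl hydroxylase, was the highest at 651 CPM in CNT and 723 in 3CK (0.15), P3H1, a prolyl 3-hydroxylase, the smallest (-0.91) and PLOD3, a lysyl hydroxylase, the largest (0.48). Of 18 enzymes that cut basement membrane proteins and their inhibitors, 14 reached 10 CPM, 2 were 2-fold higher and 1 lower. CTSS, cathepsin S, was at 2.72 CPM in CNT and 234 in 3CK (6.43), and MMP7, matrilysin, at 0.47 and 36.0 (6.25). ADAMTS1 was the smallest at 46.6 and 11.8 (-1.98), and the inhibitor TIMP1 the highest at 1143 and 1050 (-0.12).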

How the data were processed

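The authors deposited raw UMI counts per gene and barcode for 1 library per group. The file headers and the submitters' processing notes name Cell Ranger 7.1.0, and the notes GRCh38. Barcodes with at least 500 genes and at most 20% mitochondrial UMIs were kept, and Scrublet doublets (scanpy 1.11.5) were removed at 0.8% per 1000 barcodes, 52 from CNT and 16 from 3CK. Counts were summed over cells and scaled to CPM by the total; 3 UMIs equal 0.0295 CPM in CNT and 0.0327 in 3CK. Intervals are exact Poisson for levels, exact binomial (Clopper-Pearson) for shares and ratios (scipy 1.17.1), checked on simulated counts. Called means 2-fold among genes with a mean of 10 CPM. The members and gene lists were chosen with earlier results of these data known. Named are all members, the other collagen IV and laminin chains, the highest, largest and smallest of each list and the 5 most like genes; NID2, ITGB4, SDC4 and MMP7 were named after their values were seen; 1 gene of the lists is not reported here. Genes were placed with GENCODE on GRCh38. Alternatives covered filters, scaling (TMM, edgeR 4.0.16), cell weights and gates.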

Additional observations from a re-analysis of the deposited data

Results flagged for a closer look

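LAMA5 was higher in 3CK in epithelial cells (log2 ratio 0.33) and lower in mesenchymal cells (-0.74), with counting intervals on opposite sides of 0. HSPG2 did the same, at 0.72 in epithelial and -0.32 in mesenchymal cells. In the remaining cells both were lower in 3CK, LAMA5 at -0.56 and HSPG2 at -0.36. With 1 library per group the difference between the classes was not tested. Mesenchymal HSPG2 was at -0.02 without cells rich in MALAT1 and at 0.38 with equal weight for each cell, so its direction there rests on how cells are weighted.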

How the results depend on the processing

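Each of the 27 chain ratios (9 chains in 3 sets of cells) was recomputed under up to 11 of 13 alternatives, of which the limit on MALAT1 was chosen after seeing the data. The sign held in all of its alternatives for 25, and the side of 2-fold for 21. The exceptions in sign were mesenchymal LAMB3 (0.70, and -0.82 with each cell weighted equally) and mesenchymal HSPG2 (-0.32, and 0.38). LAMA1 in epithelial cells ranged from -2.98 to -2.46. The median over all cells (-0.76) was -0.68 with TMM factors, -0.86 with a total without mitochondrial, ribosomal and the 50 most abundant genes, and -0.72 without MALAT1-rich cells. The epithelial median (-0.58) was -0.69 with that total, -0.36 with equal weights, -0.52 without collagen-positive cells and -0.66 without MALAT1-rich cells. The count of epithelial chains 2-fold lower (1) was 2 with that total and 2 without MALAT1-rich cells, COL4A1 being the other. In mesenchymal cells the count lower (1) was 2 without doublet removal, 2 with that total, 2 with equal weights, 2 with a collagen limit of 2 per 10000 and 3 with a gate that used no collagen; the count higher (0) was 1 with that gate and 1 without MALAT1-rich cells. The share of all genes 2-fold lower over all, epithelial and mesenchymal cells was 10.2%, 10.8% and 14.5% with a minimum of 1 CPM, and 16.3%, 17.5% and 19.2% with more than 3 UMIs as the only minimum; 2-fold higher were 8.96%, 10.96% and 6.72% with the latter. No paired analysis was possible because each group has 1 library. Mesenchymal values rest on 124 cells in 3CK, and LAMA1 and LAMB3 there on 79 and 91 UMIs.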
